A study of Mus musculus with 5 samples.

Results

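The CpG-rich megabase windows are the 1 Mb stretches of the mouse autosomes that hold the most CpGs listed in any of the 5 libraries. A window was taken when its count reached the 90th percentile, 3205.2 CpGs, which gave 242 of 2417 windows (10.0%). They held 1020671 of the 4052827 listed autosomal CpGs (25.2%) and 40208 of the 152678 measured 1 kb tiles (26.3%). A tile was measured when at least 3 of its CpGs had a count of at least 10 in every library. The choice used the number of listed CpGs and no methylation level. The 3 windows just inside the threshold listed 3207, 3214 and 3215 CpGs and the 3 just outside listed 3204, 3182 and 3181, so the boundary falls in an unbroken range. The median was 3914 inside and 1262 outside, and the richest window listed 9239.

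The libraries came from reduced representation bisulfite sequencing, in which MspI-cut fragments are treated with bisulfite so that methylated cytosines can be told from unmethylated ones. The cells are named HSCs (hematopoietic stem cells) in the source field, while the growth protocol speaks of sorting from peripheral blood, and methylation levels alone did not allow a check of the cell type against markers. There was 1 library of genotype wildtype (WT), 2 of mice with a dominant negative histone H3.3 at lysine 36 (K36M) and 2 of mice that express a mutant H3.3, dominant negative at lysine 9 (K9M). K36M and K9M mice received doxycycline at 2 mg/ml in drinking water to induce the mutant. No doxycycline is stated for WT, so genotype and doxycycline cannot be told apart in a comparison with WT. The promoter that drives the mutant histone, the strain and the ages are not given in the sources used here. The labels do not say whether libraries of a group come from different animals, and the spread behind every p-value below may be technical.

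DNA methylation in mammals sits mostly on CpGs. Gene bodies, repeats and intergenic DNA are usually methylated, and CpG islands at gene starts are usually not. The de novo enzymes DNMT3A and DNMT3B carry a PWWP domain that binds histone H3 methylated at lysine 36, and lysine-to-methionine mutants of histone H3 inhibit the methyltransferases of the mutated site. Megabases rich in CpGs are on the whole gene-rich and early replicating, with many islands side by side.

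Levels are relative levels. The methylated count of a tile was divided by its second count. The second count was the deposited total minus the methylated count, and in K9M replicate 2 the deposited total itself. Whether it holds only unmethylated reads was not tested. The logistic model used below counts methylated and second counts as separate reads, so its p-values rest on that reading. The ratio of the 2 counts is a share of reads only if the second count holds all reads. The ratio of methylated to second count was scaled to the plateau of its library, which is the median among the 20% of tiles that rank highest on average. A level is therefore in percent of the most methylated tiles, can pass 100%, and cannot show a change that scales a whole library. K9M replicate 2 stands apart, because its deposited fraction is on another scale, with a plateau ratio of 0.954 against 1.22 to 1.37 in the other 4. Deposited counts over autosomal CpGs summed to between 108651379 and 168836289 per library, and the median second count of a tile in the CpG-rich windows was between 197 and 253. Second counts per CpG at tiles of 3 to 9 CpGs were alike inside and outside the windows, at 42.6 against 42.6 in WT and 33.4 against 33.3 in K36M replicate 1, but at 10 to 19 CpGs they were lower inside, at 45.1 against 59.5 in WT.

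CpG-rich windows clustered along the chromosomes. Of the 242, 183 (75.6%) lay next to another one, in 115 runs of which 59 were single windows. The longest run held 11 windows on chromosome 4 (chr4:131000001-142000000, mm9), followed by 7 windows on chromosome 15 (chr15:96000001-103000000) and 6 on chromosome 17 (chr17:24000001-30000000). Chromosome 11 had the largest share, 29 of its 119 windows (24.4%), followed by chromosome 4 with 31 of 153 (20.3%) and chromosome 19 with 11 of 59 (18.6%). Gene names come from RefSeq promoter sequences that could be placed on the mm9 CpG positions by the spacing of their CpGs. Placed starts belonged to 14.2 genes per CpG-rich window, from 0 to 36, and to 2.83 genes per other window. CpG-poor starts cannot be placed in this way, so these numbers are lower than the number of genes, and a closer gene than the one named may exist. Starts are placed by listed CpGs, whose number also chose the windows, so 14.2 and 2.83 are not independent of that choice.

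The promoters of 4 genes are shown as examples in which the 1 kb tile at the gene start was called different between groups and the 250 bases before the start differed too. They were chosen after their values were seen, and at other called tiles, such as those of Prkag2 and Ccnd3 described further on, these bases did not differ in this way. Each sequence is the RefSeq promoter (GRCm38.p6 table) on the gene's strand, 5′ to 3′, ending at the base before the start, with the CpGs measured in all 5 libraries in capitals. Vwa7 encodes a protein with a von Willebrand factor A domain, Nrsn2 a neuronal vesicle membrane protein, Thegl a relative of a spermatid protein, and Pik3cd the delta catalytic subunit of phosphoinositide 3-kinase in leukocytes. Their mm9 positions are chr17:35153274-35153523 (plus strand), chr2:152202342-152202591 (minus), chr5:77444798-77445047 (plus) and chr4:149050199-149050448 (minus).
Vwa7: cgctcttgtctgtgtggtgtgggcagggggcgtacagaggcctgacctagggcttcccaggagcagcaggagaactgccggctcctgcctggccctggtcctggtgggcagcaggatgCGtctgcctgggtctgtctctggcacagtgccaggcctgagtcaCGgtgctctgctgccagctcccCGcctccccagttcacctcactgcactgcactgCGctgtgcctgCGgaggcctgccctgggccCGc
Nrsn2: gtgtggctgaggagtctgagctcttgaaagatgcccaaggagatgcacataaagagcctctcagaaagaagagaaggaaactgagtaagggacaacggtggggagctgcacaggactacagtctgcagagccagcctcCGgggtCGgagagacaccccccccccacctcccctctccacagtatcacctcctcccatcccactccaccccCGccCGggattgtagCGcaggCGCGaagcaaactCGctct
Thegl: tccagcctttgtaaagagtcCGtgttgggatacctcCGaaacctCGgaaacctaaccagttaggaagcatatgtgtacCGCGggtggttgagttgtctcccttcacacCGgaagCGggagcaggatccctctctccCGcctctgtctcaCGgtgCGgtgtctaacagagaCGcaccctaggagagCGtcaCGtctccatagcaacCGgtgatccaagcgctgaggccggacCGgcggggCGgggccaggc
Pik3cd: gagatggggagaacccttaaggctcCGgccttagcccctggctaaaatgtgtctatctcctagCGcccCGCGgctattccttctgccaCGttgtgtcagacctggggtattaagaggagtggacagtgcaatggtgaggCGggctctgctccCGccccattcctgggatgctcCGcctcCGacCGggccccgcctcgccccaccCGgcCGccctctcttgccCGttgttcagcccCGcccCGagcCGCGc

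The Vwa7 promoter had almost no methylation in K36M. Over its 6 measured CpGs of 9 in the 250 bases, the relative level was 23.2% in WT, 2.81% and 2.39% for K36M and 39.8% and 47.5% for K9M. Of the 9 CpGs measured from 250 bases before to 50 after the start, 8 were lower in both K36M libraries than in WT and 9 were lower in both K36M libraries than in both K9M libraries. No CpG exceeded 8.22% in K36M, while WT reached 54.0%. The 1 kb tile around the start (chr17:35153001-35154000) was called lower in K36M than in WT, by 23.1 points (adjusted p = 0.000767, quasi-binomial logistic model with moderated dispersion), and the adjusted p ranged from 1.83e-05 to 0.449 over the alternatives.

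At Nrsn2 the 8 measured CpGs of the 250 bases stood at 40.2% in WT, at 22.3% and 19.3% for K36M and at 39.2% and 29.8% for K9M. All 11 CpGs measured around the start were lower in both K36M libraries than in WT. K9M replicate 2 lay between WT and K36M, and the tile was called against WT in K36M (adjusted p = 0.0246, same model). That call was lost without K36M replicate 2, with an adjusted p of 0.173.

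At Thegl the WT library alone was high. The 16 measured CpGs of the 250 bases had a level of 29.7% in WT, 5.23% and 5.22% for K36M and 3.44% and 5.596% for K9M. All 22 CpGs measured around the start were lower in both K36M libraries than in WT, and 21 were lower in both K9M libraries. Only the last bases of this sequence lie in the tile of the start (chr5:77445001-77446000), which stood at 43.6% in WT, 18.7% and 19.9% for K36M and 14.4% and 15.4% for K9M. That tile was called lower than WT in K36M (adjusted p = 0.00027, same model) and in K9M (adjusted p = 0.000113), and both calls rest on the same unreplicated WT library.

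The Pik3cd promoter was higher in K9M. Its 17 measured CpGs stood at 1.48% in WT, 1.34% and 0.798% for K36M and 9.41% and 8.76% for K9M. Of 24 CpGs measured around the start, 23 were higher in both K9M libraries than in WT. The 1 kb tile that holds the start rose by 12.2 points in K9M against WT (adjusted p = 0.000391, same model). In the plot of single CpGs at these promoters, the differences run over most of the measured CpGs and are not set by 1 of them. Neighbouring CpGs of a library can share reads, so the number of CpGs that differ does not add replicates.

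**Figure D1:**
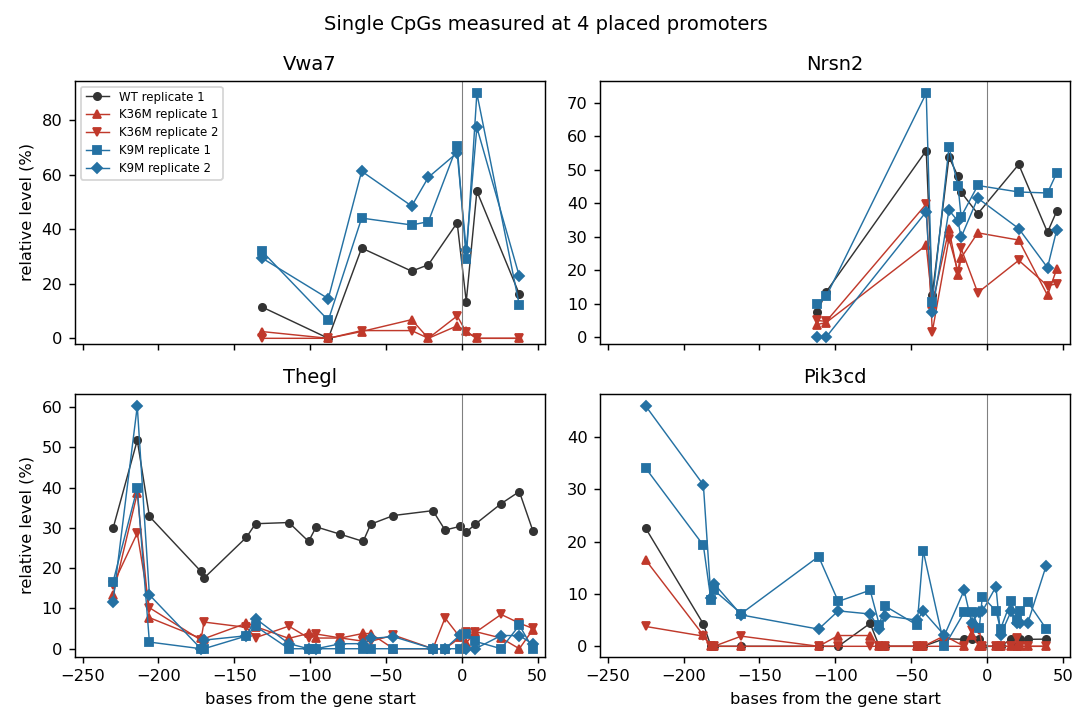
Relative methylation level (%) of each CpG measured in all 5 libraries against its distance in bases from the gene start, at Vwa7, Nrsn2, Thegl and Pik3cd, with 1 line per library and a different vertical scale in each panel. Both K36M libraries stay at or below 8.22% at Vwa7, WT alone is high at Thegl, and both K9M libraries lie above WT at 23 of 24 CpGs at Pik3cd.

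Methylation in the CpG-rich windows was lower than elsewhere in all 5 libraries. The mean tile level was 63.3% in WT, 59.9% and 60.9% for K36M and 63.1% and 65.9% for K9M. In the other windows it was 73.8% in WT, 71.8% and 72.5% for K36M and 73.5% and 76.0% for K9M. Part of the gap came with the number of CpGs in a tile, since the level fell from 79.1% in WT at tiles with 3 to 9 listed CpGs to 70.1%, 37.4% and 6.17% at tiles with 10 to 19, 20 to 39 and 40 or more. Tiles of the same classes in other windows stood at 84.3%, 77.2%, 54.6% and 17.6% in WT, so the CpG-rich windows were lower within each class. At matched listed CpG number, CpG-rich windows lay 8.45 points below the others (SD 0.908, n = 5 libraries), with an exact two-sided sign-flip permutation p of 0.0625, the smallest that 5 libraries allow. The difference was between -7.50 and -9.59 points in each library. All 5 libraries compare the same windows, so the permutation p does not measure the spread over windows.

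**Figure D2:**
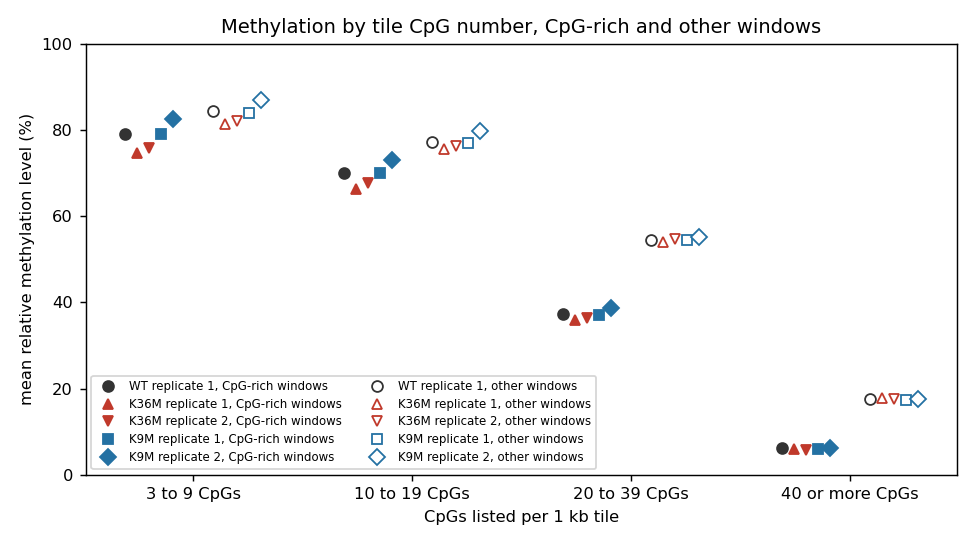
Mean relative methylation level (%) of 1 kb tiles by the number of listed CpGs per tile, with 1 point per library, filled for CpG-rich windows and open for other windows. In each of the 4 classes and 5 libraries the CpG-rich windows lie lower, for example 37.4% against 54.6% in WT at 20 to 39 CpGs.

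The share of low and high tiles shows where this gap lies. With classes set by the mean of the 2 K9M libraries, 26.7% of the tiles in CpG-rich windows were under 20%, 15.0% between 20% and 80% and 58.3% over 80%. In other windows the shares were 17.7%, 10.4% and 71.9%. Tiles that hold a placed promoter start, 3183 in the CpG-rich windows, had a mean level of 4.35% in WT, 4.23% and 4.07% for K36M and 4.45% and 4.46% for K9M. Tiles of 40 or more CpGs without a placed start stood at 10.4% in WT inside and 28.0% outside the CpG-rich windows.

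K36M had less methylation than WT across the CpG-rich windows. The mean tile level was 60.4% (SD 0.706, n = 2) in K36M and 63.3% in WT, a difference of -2.90 points, with -3.40 and -2.40 in the 2 libraries. In other windows the difference was -1.71 points. Both K36M libraries lay below WT by more than their own spread. The K9M libraries, at 63.1% and 65.9% (SD 1.96), lay farther apart than the K36M libraries, and the spread of WT is unknown. No test was made of the mean against the lone WT library. With a plateau taken from the top 40% of tiles the difference was -2.21 points, and it was -1.27 points with pooled counts, which give CpG-dense tiles more weight.

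Averaged over tiles of all levels, the difference was largest at sparse tiles. It was -3.87 points at tiles of 3 to 9 CpGs, -3.05 at 10 to 19, -1.29 at 20 to 39 and -0.225 at 40 or more. In other windows it was -2.50, -1.25, -0.175 and 0.0576 points in the same classes. The denser classes also had less to lose, with WT at 37.4% and 6.17% in the last 2. Among tiles between 20% and 80% by K9M the order was not kept in CpG-rich windows. The differences there were -7.08, -6.57, -5.20 and -7.52 points, the last over 101 tiles. In other windows they were -5.25, -4.49, -3.88 and -2.90 points. Matched for listed CpG number, K36M against WT was lower in CpG-rich than in other windows by a further 1.53 and 1.19 points in the 2 libraries (values of -1.53 and -1.19). Matched also for the level class set by K9M, which the contrast does not use, it was -1.46 and -0.970 points. With deposited levels the means of these values were smaller, -0.610 in place of -1.36 and -0.515 in place of -1.22 points. Matched for CpG number alone, the value in K9M was 0.174 and 0.563 points, so the mutants did not overlap. K36M and K9M differed in it by -1.72 points (exact permutation test, two-sided, p = 0.333, which is the smallest value open to this design).

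Tiles of intermediate level moved most. Between 20% and 80% by K9M, tiles in CpG-rich windows stood at 54.9% in WT and at 48.4% and 48.0% in K36M, a difference of -6.69 points against -4.93 in other windows. Both K36M libraries lay below WT at 59.7% of these tiles, and at 51.4% in other windows. Over 80% the difference was -3.10 points against -1.64 points, and under 20% it was -0.314 against -0.0980 points.

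Ordered by listed CpGs, the windows gave a graded difference. In the decile with the fewest CpGs (66 to 679) the K36M libraries differed from WT by -0.494 and -0.0551 points, in decile 5 by -1.35 and -0.995, and in the CpG-rich windows by -3.40 and -2.40. Tiles of 3 to 9 CpGs alone gave -0.757 and -0.922 points in decile 1 and -4.51 and -3.22 in decile 10. K9M replicate 1 stayed between -0.599 and -0.151 points across the deciles, and K9M replicate 2 went from 1.55 to 2.62. The K9M libraries lay on opposite sides of WT in every decile.

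**Figure D3:**
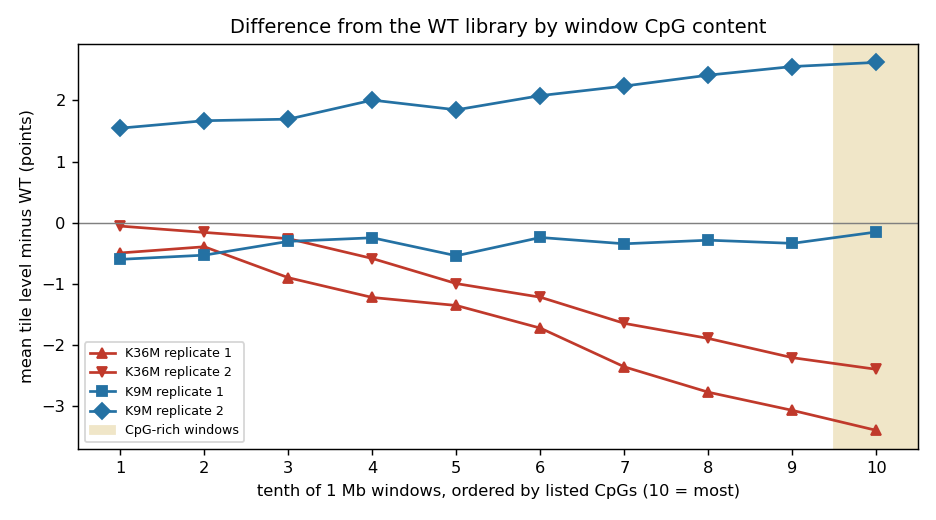
Mean tile level minus the WT library (points of relative level) for each decile of the 1 Mb windows ordered by listed CpGs, with 1 line per mutant library and the CpG-rich windows shaded. Both K36M lines fall toward the CpG-rich end, to -3.40 and -2.40 points, while the K9M lines end at -0.151 and 2.62.

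In single windows the direction was uniform. The mean of the K36M libraries lay below WT in 242 of the 242 CpG-rich windows and in 1659 of 2165 other windows, with a median difference of -2.81 points and a range from -6.92 to -0.132. Both K36M libraries were below WT in 237 windows (97.9%), against 66.7% of all 2407 windows with at least 10 tiles. With a plateau from the top 40% of tiles the K36M mean was below WT in 235 of 242. The direction in a window shares the scaling of each library with every other window. No CpG-rich window was called in either direction by limma (0 of all 2407 windows, 0%), the smallest adjusted p was 0.625, and 24 CpG-rich windows were lower and 0 higher at an unadjusted p under 0.05, against 127 and 3 of all 2407.

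The largest fall was in chr11:88000001-89000000, which holds Msi2, an RNA-binding regulator of blood stem cells, and the ubiquitin ligase gene Trim25. Its mean level was 76.5% in WT, 69.3% and 69.9% for K36M and 75.4% and 78.5% for K9M. Next came chr5:124000001-125000000 with Kmt5a, a histone H4 lysine 20 methyltransferase, and Clip1, a microtubule plus-end protein, at 66.5% in WT, 59.5% and 60.5% for K36M and 65.1% and 68.4% for K9M. In chr17:31000001-32000000, with the splicing factor gene U2af1, the levels were 74.4% in WT, 68.2% and 69.7% for K36M and 72.5% and 76.0% for K9M. The differences from WT were -6.92, -6.54 and -5.43 points (SE 2.11 each), with limma adjusted p of 0.625, 0.625 and 0.740. In these 3 windows both K36M libraries lay below the other 3 libraries. Of all 242 CpG-rich windows, both K36M libraries lay below WT in 237 and below both K9M libraries in 234.

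The smallest differences were close to 0. In chr5:147000001-148000000, with the kinase gene Cdk8, WT stood at 72.7% and K36M at 72.1% and 73.1%, a difference of -0.132 points. In chr3:96000001-97000000, which holds the histone genes H3c14, H3c15, H2ac18 and H2ac19, it was -0.264 points, from 45.1% in WT to 44.7% and 45.0% in K36M. In chr7:4000001-5000000, with the histone H4 lysine 20 methyltransferase gene Kmt5c, it was -0.575 points. The K36M libraries lay on both sides of WT in the first and the third of these and below it in the second.

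The 2 genes that encode histone H3.3 both have a placed start in a CpG-rich window. H3f3b lies in chr11:115000001-116000000, with 6714 listed CpGs, and H3f3a in chr1:182000001-183000000, the window at the threshold with 3207. The first stood at 65.1% in WT, 60.2% and 61.8% for K36M and 64.7% and 68.1% for K9M. The second stood at 57.4% in WT, 53.6% and 54.8% for K36M and 57.9% and 60.6% for K9M. The differences of K36M from WT were -4.03 and -3.18 points, within the range of the other CpG-rich windows.

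The CpG-richest windows were chr10:79000001-80000000 and chr10:80000001-81000000, with 9239 and 8989 listed CpGs and 36 genes with a placed start each. They hold Tcf3, a transcription factor of B cell development, and Dot1l, the histone H3 lysine 79 methyltransferase. The first stood at 54.5% in WT, 51.3% and 51.7% for K36M and 54.2% and 57.3% for K9M. The second stood at 54.1% in WT, 50.0% and 51.6% for K36M and 54.2% and 57.0% for K9M. The differences of K36M from WT were -2.99 and -3.35 points. The plot of single windows sets these values beside the other CpG-rich windows.

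**Figure D4:**
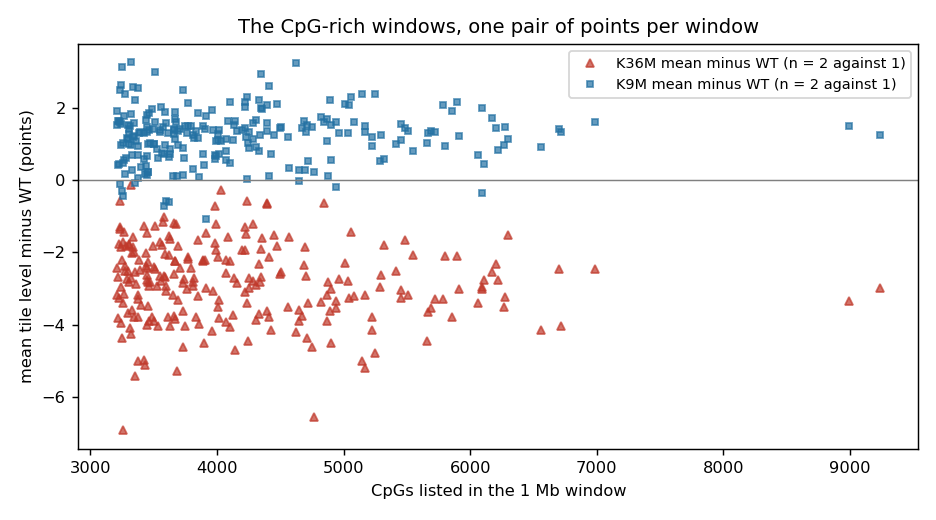
Mean tile level minus WT (points of relative level) in each of the 242 CpG-rich windows against its number of listed CpGs, for the mean of the 2 K36M libraries and the mean of the 2 K9M libraries. All K36M points lie below 0, from -6.92 to -0.132, and 11 of the K9M points do.

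At 1 kb tiles the changes were nearly all losses. In the CpG-rich windows 436 tiles were called lower in K36M than in WT and 11 higher (logistic model, adjusted p under 0.05 over all tiles and at least 10 points), 1.08% and 0.0274% of tiles, against 0.586% and 0.0216% of all tiles. These windows thus held 48.7% of the 895 lower tiles and 26.3% of the tiles. Averaged over the 436, the level was 47.5% in WT, 19.7% and 19.2% for K36M and 47.3% and 48.4% for K9M. The differences of WT and K36M chose these tiles, and the K9M libraries entered the spread behind the calls. Without K9M replicate 1 or K9M replicate 2, 588 and 584 tiles were called lower. CpG-rich windows hold more measured tiles each, 40208 in 242 windows against 112470 in 2175 other windows. Windows with a called tile were counted only among the CpG-rich ones. Called losses lay in 185 of the 242 windows, at least 5 of them in 22 windows and at most 12 in one. Without K36M replicate 2, 241 were called, and 48.0% to 50.6% of the lower tiles lay in the CpG-rich windows when any mutant library was left out. limma on the relative levels called 0 lower, limma with a variance trend 113 and edgeR's quasi-likelihood test 746. At an unadjusted p under 0.05, limma on the relative levels had 2717 tiles lower and 317 higher by at least 10 points. These 2 counts are not corrected for the number of tiles, and the same counts over all tiles were not made.

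The share called was higher than outside in each class of tiles. It was 0.895% at 3 to 9 CpGs, 1.46% at 10 to 19, 1.27% at 20 to 39 and 0.561% at 40 or more, and 0.418%, 0.505%, 0.326% and 0.146% in other windows. Calls were most frequent at intermediate level. Between 20% and 80% by K9M, 5.36% of the tiles in CpG-rich windows were called lower and 2.84% elsewhere, while over 80% the shares were 0.226% and 0.0581%. The median second count per tile at 3 to 9 CpGs was 159 inside and 149 outside the windows in WT, and the part of this depth in the shares called was not tested.

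**Figure D5:**
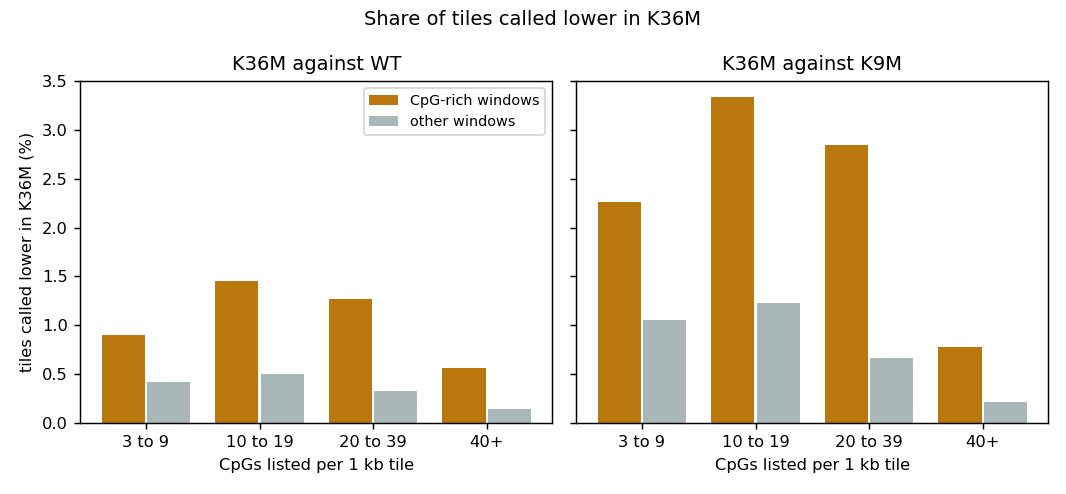
Share of 1 kb tiles (%) called lower in K36M, against WT on the left and against K9M on the right, by listed CpGs per tile, with 1 bar for CpG-rich windows and 1 for other windows. The CpG-rich bars are higher in each class, for example 1.46% against 0.505% at 10 to 19 CpGs against WT.

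Of the 3183 tiles with a placed start 13 were called lower (0.408%), and of the 37025 without one 423 (1.14%). Of the tiles with a placed start 95.2% were under 20% in WT, so few of them could fall by 10 points. The median distance of a called tile from the nearest placed start was 17.1 kb, against 20.4 kb for all tiles of these windows, and 23.6% of called tiles lay within 5 kb, against 23.4% of all. Within 1 kb the shares were 6.42% and 12.7%, and within 20 kb 54.6% and 49.4%. Called tiles were thus less frequent next to a start and no farther from starts by the median.

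The largest loss was in chr9:114649001-114650000, 9.18 kb downstream of the start of Cmtm6, which encodes a membrane protein that stabilises PD-L1. Its level was 103% in WT, 15.2% and 22.5% for K36M and 94.9% and 94.9% for K9M, a difference of -84.3 points over 6 measured CpGs (adjusted p = 0.00014, logistic model). In chr1:74065001-74066000, 105.6 kb downstream of the start of Tns1, a focal adhesion gene, WT stood at 86.5%, K36M at 5.71% and 0% and K9M at 57.5% and 58.7%. That tile rests on 3 CpGs, with second counts between 38 and 75 per library. In both tiles the 2 K36M libraries lay far below the other 3.

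Ptk7, a pseudokinase of planar cell polarity, lies next to chr17:46768001-46769000, which is 2.05 kb upstream of its start. The tile stood at 97.4% in WT, 26.8% and 19.6% for K36M and 89.4% and 88.1% for K9M. Near Lrrc20, 20.9 kb downstream of its start, chr10:60959001-60960000 stood at 81.0% in WT, 6.76% and 11.3% for K36M and 85.3% and 80.1% for K9M. A tile 42.5 kb downstream of the start of Ifrd2 (chr9:107532001-107533000) stood at 81.9% in WT, 16.6% and 20.4% for K36M and 74.4% and 84.2% for K9M. All 3 were high in the 3 libraries without the K36M mutant.

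The tile chr4:134687001-134688000 lies 20.96 kb upstream of the start of Runx3, a transcription factor of lymphoid and myeloid cells. It stood at 77.8% in WT, 13.3% and 18.8% for K36M and 65.0% and 50.2% for K9M (difference of K36M from WT -61.8 points, adjusted p = 0.00014, logistic model). It lies in the 11-window run of chromosome 4. Among denser tiles the largest losses were in chr19:5757001-5758000 and chr11:5906001-5907000. The first stood at 71.6% in WT, 30.5% and 17.8% for K36M and 67.1% and 66.1% for K9M. The second stood at 66.0%, then 14.6% and 11.1%, then 21.9% and 45.8%. The second of these was also low in K9M replicate 1. None of these 8 tiles was called by limma on the relative levels, with adjusted p between 0.445 and 0.534.

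In several of the 13 tiles with a placed start and a called loss, the 250 bases before the start differed little, so the change lay elsewhere in the tile. The tile at Hoxa6, a homeobox gene, (chr6:52158001-52159000) stood at 20.8% in WT, 7.45% and 6.71% for K36M and 24.7% and 24.5% for K9M, and that at Hoxa5 (chr6:52154001-52155000) at 77.6%, then 58.3% and 56.5%, then 83.0% and 86.8%. The 250 bases before the Hoxa6 start stood at only 2.09% in WT, 0.692% and 0.881% for K36M and 5.53% and 4.03% for K9M. The Hoxa5 call was lost with edgeR (adjusted p = 0.252) and without K36M replicate 2 (adjusted p = 0.0843). At Ccnd3, which encodes cyclin D3, WT stood at 61.6%, K36M at 30.7% and 19.5% and K9M at 51.0% and 47.2%, and the call was lost without K36M replicate 2 (adjusted p = 0.24). The 3 CpGs measured in the 250 bases before its start were at 0% in all 5 libraries. At Prkag2, a regulatory subunit of AMP-activated kinase, the tile of 85 measured CpGs stood at 17.7% in WT, 4.21% and 4.99% for K36M and 9.78% and 11.4% for K9M. Its 250 bases before the start, with 30 of 34 CpGs measured, stood at 0.335% in WT, 0.816% and 0.329% for K36M and 0% and 0.498% for K9M, all near 0.

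The other called promoter tiles, beside Vwa7, Nrsn2 and Thegl, were those of Sync, Fbxo44, Gm42008, Ltbp4, Acp5 and Rassf1. Their differences from WT were between -34.8 points at Sync, an intermediate filament protein gene, and -10.2 points at Rassf1, a Ras-association gene. Gm42008, Acp5 and Rassf1 were no longer called without K36M replicate 1. With a second count minimum of 5, Fbxo44, Ltbp4 and Acp5 were not called either.

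The 12 called losses in chr8:122000001-123000000 were the most in one window. It lists 5250 CpGs and holds Crispld2, a secreted protein gene, and Mbtps1, the site-1 protease. Its mean level was 69.0% in WT, 63.7% and 64.8% for K36M and 69.7% and 73.1% for K9M. Then came chr10:80000001-81000000 and chr7:25000001-26000000 with 8 each and chr3:87000001-88000000 and chr5:124000001-125000000 with 7 each. None of these 5 windows had a tile called higher.

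Gains in K36M were few, and those with the largest differences were shared with K9M in 3 of 4. In chr7:31930001-31931000 WT stood at 42.2%, K36M at 92.9% and 91.9% and K9M at 99.6% and 100.2%. In chr5:115930001-115931000, 3.81 kb downstream of the start of Sirt4, a mitochondrial sirtuin gene, WT stood at 45.3%, K36M at 87.6% and 73.0% and K9M at 85.8% and 76.0%. In chr5:113643001-113644000 the values were 27.3%, then 62.1% and 56.0%, then 54.99% and 57.8%. In these 3 tiles the unreplicated WT library stood alone below the other 4, and the call of the first was lost without K36M replicate 2 (adjusted p = 0.0573, logistic model). In the fourth, chr18:36291001-36292000, K36M stood at 64.3% and 67.0%, WT at 24.98% and K9M at 28.7% and 27.8%.

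K9M against WT gave few calls in the CpG-rich windows. The mean tile level was 64.5% (SD 1.96, n = 2) in K9M and 63.3% in WT, and the libraries differed from WT by -0.151 and 2.62 points, so the difference of 1.24 was smaller than the spread. With pooled counts it was -0.0695 points. In 20 tiles K9M was called lower and in 48 higher (logistic model), 0.0497% and 0.119% of tiles, against 0.0373% and 0.0681% of all tiles. limma called 0 of the windows in either direction (0% of all). At an unadjusted p under 0.05, 0 of the CpG-rich windows were lower and 0 higher, against 7 and 13 of all 2407, so this was rare everywhere. Both K9M libraries lay above WT in 100 windows (41.3%), against 38.8% of all, and both below in 1 window, against 6.69% of all.

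The largest gains in K9M included a promoter. Fv1 encodes a retrovirus restriction factor and Miip an inhibitor of cell migration. The tile with the start of Fv1 (chr4:147243001-147244000) stood at 5.44% in WT, 4.05% and 3.12% for K36M and 69.9% and 45.4% for K9M (adjusted p = 0.00083, logistic model), and the adjoining tile with the start of Miip stood at 0.845%, then 0.786% and 0.494%, then 18.5% and 11.6%. The starts of these genes point away from each other, and their promoter windows share CpGs. In chr8:73340001-73341000, WT stood at 35.5%, K36M at 62.5% and 53.5% and K9M at 78.2% and 84.8%. In chr11:75708001-75709000 WT stood at 18.3%, K36M at 39.02% and 58.2% and K9M at 63.2% and 64.7%. The fourth was the chromosome 7 tile at 31930001 given above.

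Among the largest losses in K9M, chr7:87975001-87976000 stood at 78.4% in WT, 64.9% and 63.3% for K36M and 32.9% and 28.8% for K9M, and chr2:156188001-156189000 at 71.6%, then 63.1% and 54.7%, then 28.7% and 35.8%. In chr4:140122001-140123000, WT stood at 47.4%, K36M at 47.3% and 53.6% and K9M at 17.5% and 18.99%. In these 3 tiles K9M was lower than the other 3 libraries. The first call was lost without K9M replicate 2 and the third without K9M replicate 1 (adjusted p = 0.0667 and 0.0541, logistic model). In chr16:91140001-91141000, chr11:5907001-5908000 and chr7:17575001-17576000 K36M was called lower than WT as well. WT stood at 65.5%, 55.4% and 46.7% there, so that WT alone was high. Of 7 alternatives other than the limma fits, 7, 5 and 5 kept the K9M call of these tiles, in the same order. Promoter tiles of Fbxo44, Thegl, Tmem233 and Fbxo31 were called lower in K9M, and those of Miip, Fv1 and Pik3cd higher. The K9M call at Fbxo44 was kept in 5 of the 7 alternatives. The Fbxo31 tile was not called without K9M replicate 2.

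K36M against K9M is the comparison with 2 libraries a side, both on doxycycline. It shares the K36M libraries with the comparison against WT. K36M had a mean tile level of 60.4% (SD 0.706, n = 2), and K9M one of 64.5% (SD 1.96, n = 2). The difference was -4.13 points (exact permutation test, two-sided, p = 0.333, again the smallest value open to the design). The libraries did not overlap, and without K9M replicate 2 the difference was -2.75 points. With pooled counts it was -1.20 points. In the CpG-rich windows 1014 tiles were called lower in K36M and 33 higher (logistic model), 2.52% and 0.0821% of tiles, against 1.39% and 0.0897% of all tiles. Without K36M replicate 2, 619 were called lower. Of the 436 tiles lower than in WT, 365 were also lower than in K9M, 83.7% of the first list and 36.0% of the second.

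In windows, the K36M mean lay below the K9M mean in 242 of 242, against 2108 of all 2407 (87.6%). The median difference was -4.03 points, against -2.35 over all windows. The libraries of the 2 groups did not overlap, with K36M lower, in 234 of the 242 (96.7%), against 57.6% of all windows. In no CpG-rich window did K36M lie above K9M in this way, against 2.24% of all. limma called 42 of the CpG-rich windows lower and 0 higher, 17.4% against 6.11% of all windows. These calls did not hold when libraries were left out. None was made without K36M replicate 1, without K36M replicate 2 or without K9M replicate 2, and 211 were made without K9M replicate 1. At an unadjusted p under 0.05, 174 of the 242 were lower and 0 higher, against 736 lower and 12 higher of all 2407.

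The largest differences from K9M were in chr18:75000001-76000000, with -7.51 points, and in chr17:29000001-30000000, with -7.43 points, the window of Cdkn1a, which encodes the cell cycle inhibitor p21, and of the kinase gene Pim1. The latter stood at 63.2% in WT, 58.4% and 59.7% for K36M and 65.5% and 67.5% for K9M. chr11:88000001-89000000, with the largest fall against WT, had -7.40 points, and the limma adjusted p was 0.00317, 0.00351 and 0.00351 for the 3 windows. The smallest difference was in chr6:47000001-48000000, with -0.29 points. That window holds Ezh2, the histone H3 lysine 27 methyltransferase, and stood at 56.8% in WT, 56.6% and 54.9% for K36M and 55.3% and 56.8% for K9M. In chr6:114000001-115000000 the difference was -0.379 points and in chr15:96000001-97000000 it was -1.19 points.

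At tiles with a placed promoter start, 23 were called lower in K36M than in K9M (0.723%) and 0 higher. This share was below that of tiles without a placed start in these windows (2.68%) and that of all tiles (1.39%). Among those not called against WT was Slc7a7, an amino acid transporter gene, whose tile chr14:55036001-55037000 stood at 45.1% in WT, 30.5% and 29.1% for K36M and 57.6% and 51.1% for K9M (adjusted p = 0.00206, logistic model). It was chosen after its values were seen. WT lay between the mutants there.

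The tile with the largest difference from K9M was chr8:87245001-87246000, with 15 measured CpGs, 135.4 kb upstream of the start of Farsa. It stood at 61.5% in WT, 3.66% and 3.49% for K36M and 79.7% and 92.4% for K9M, and the adjusted p was 1.03e-07 against K9M and 3.26e-06 against WT (logistic model). In chr11:115504001-115505000, within the window of H3f3b, WT stood at 42.4%, K36M at 1.87% and 6.44% and K9M at 70.5% and 85.1%, over 3 CpGs. In chr17:29393001-29394000, 7.42 kb downstream of the start of the spliceosome gene Ppil1, the values were 68.8%, then 18.99% and 17.0%, then 97.6% and 85.6%. In chr4:128674001-128675000 they were 49.6%, then 18.6% and 18.5%, then 93.6% and 90.7%. WT lay between the mutants in all 4. The other tiles among the largest differences were those near Cmtm6 and Lrrc20 given above.

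Higher than in K9M were chr17:35924001-35925000, at 73.0% and 48.1% for K36M and 25.1% and 20.1% for K9M, and chr15:99693001-99694000, at 79.8% and 68.2% against 24.4% and 48.7%. A tile 11.6 kb downstream of the start of Spsb1 (chr4:149317001-149318000) stood at 84.1% and 77.7% against 47.1% and 47.9%. These calls had adjusted p of 0.0417, 0.0301 and 0.0495 (logistic model), and at least 3 of the 4 fits that left out a library lost each of them. The windows with the most tiles below K9M were chr8:122000001-123000000 with 21, chr11:120000001-121000000 with 17, chr10:80000001-81000000 with 15, the Runx3 window chr4:134000001-135000000 with 14 and chr8:125000001-126000000 with 13. At least 1 such tile lay in 230 of the 242 windows, and at least 5 in 84. Other windows hold fewer measured tiles each, and this count was not made for them.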

How the data were processed

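Methylation was measured by reduced representation bisulfite sequencing in 5 mouse libraries (1 WT, 2 K36M, 2 K9M), grouped by their titles and genotypes. Per the submitters' processing notes the reads went through cutadapt and BSMAP with build mm9. Versions, settings and any removal of duplicates are not given in the sources used here. The files hold, for each CpG, a deposited level (a fraction) and a deposited total count. The methylated count was the product of fraction and total, whole within 0.01 at 100% of CpGs in 4 libraries and at 89.2% in K9M replicate 2. The second count was the deposited total minus the methylated count, and the deposited total itself in K9M replicate 2, a reading taken from the values. Levels are the ratio of these counts over the library's plateau. PCR reads carry no molecular identifiers, so counts are not independent molecules.

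A CpG passed when its second count reached 10 in every library (1780536 CpGs), and a 1 kb tile when it held 3 such CpGs (152678 tiles). Tiles were fitted with a logistic model with quasi-binomial dispersion moderated by limma 3.58.1 (R 4.3.3, squeezeVar, dispersion held at or above 1), windows of at least 10 tiles with limma, and p-values were adjusted by Benjamini-Hochberg over all tiles or all 2407 windows. All 5 libraries entered each fit, which takes the spread of WT from the mutants. Called tiles had an adjusted p under 0.05 and a difference of at least 10 points. Alternatives were edgeR 4.0.16, limma on relative and deposited levels, count minimums of 5 and 20, at least 5 CpGs per tile, a plateau from the top 40%, percentiles of 80 and 95, pooled counts, the replicate block and leaving out each mutant library. limma with a variance trend was added after seeing the data. The fit was also run on simulated data, with dispersion above 1 at 99.5% of tiles, against 22.7% in the measured data. That run does not show how the calls hold in the measured data.

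No mm9 genome or annotation was used. RefSeq promoter sequences of 300 bases (GRCm38.p6 table) were placed on mm9 CpG positions by the spacing of at least 8 CpGs, with 5 gaps in a row matching and each listed CpG present in the sequence. Of 32851 sequences 15982 had enough CpGs and 10915 were placed exactly once. Of these, 10903 fell on the chromosome of the table, and the other 12 were dropped. The design had foreseen no gene names without an mm9 annotation, so this step was added after seeing the data. The windows and lists were chosen with earlier results of these data known. Named windows are the 6 with most CpGs, those at the threshold, the 3 largest falls and rises and the 5 with most called tiles. Named tiles are the 6 largest lower and 4 largest higher calls per comparison and the largest loss in each CpG number class. Promoter tiles that were called are named in addition.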

Additional observations from a re-analysis of the deposited data

How the results depend on the processing

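Lower tiles in K36M against WT (436) numbered 0 with limma on relative levels, 0 with limma on deposited levels, 113 with limma and a variance trend (added after seeing the data) and 746 with edgeR, and 241 to 588 when one mutant library was left out. The 11 higher tiles became 0, 0, 0 and 19 in the same order, 6 with a second count minimum of 20, and 7 to 18 with a library left out. For K9M against WT the 20 lower tiles became 0, 0, 9 and 44, and 33 with at least 5 CpGs per tile, and the 48 higher tiles 0, 0, 17 and 110. For K36M against K9M the 1014 lower tiles became 0, 0 and 500 with the 3 limma fits and 619 to 908 with a library left out, and the 33 higher tiles 0, 0, 9 and 53, and 17 to 29. The 42 lower windows of K36M against K9M became 95 and 16 with second count minimums of 5 and 20, 14 with at least 5 CpGs per tile, 0 with deposited levels, and 0 to 211 with a library left out. The mutant libraries share only a replicate number, and the correlation across tiles of the replicate differences of K36M and K9M was 0.0773. With the replicate block K36M against K9M gave 445 lower and 11 higher tiles and 166 lower windows. Mean differences with deposited levels were -1.18, 13.7 and -14.9 points for K36M against WT, K9M against WT and K36M against K9M, and the cause was not tested. The values with K9M include K9M replicate 2, whose deposited fraction is on another scale, so they cannot be read as group differences. Pooled counts gave -1.27 points for K36M against WT and -1.20 for K36M against K9M. The level of CpG-rich minus other windows at matched CpG number was -9.37 points with a count minimum of 20, -4.98 with deposited levels and -9.65 with windows from the 80th percentile. K36M against WT in CpG-rich minus other windows was -0.61 and -0.515 points with deposited levels, matched for CpG number and for level class too. The cause of these changes was not tested where none is given. Over counts and means, 132 alternative values stayed within the set margin and 52 moved. The K9M against WT mean of 1.24 points changed sign, to -0.0695 with pooled counts and -0.151 without K9M replicate 2. Of 51 named tile calls, edgeR kept 49, limma on relative levels 0, limma with a trend 18, and each fit without a library 44 to 47. A tile with few CpGs and second counts near the minimum of 10 can show only large differences.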
